A study of Mus musculus with 8 samples.

Results

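Translation initiation factors load ribosomes onto messenger RNA and select the start codon. The genes described here are the 48 autosomal protein coding mouse genes whose symbol is Eif followed by a digit from 1 to 6, without the 4 kinases of eIF2alpha, out of 35944 genes summed from the deposited transcripts. They were chosen by symbol, with earlier results of these data known, and 3 further genes of the family that lie off the autosomes were left out. RNA came from mouse buffy coats, that is, from the thin layer of blood that holds white cells and platelets after spinning. One group of 4 libraries, replicates 9, 17, 18 and 21, was exposed to PM2.5 (fine airborne particulate matter) and the other group of 4, replicates 4, 10, 12 and 16, was given PBS (phosphate-buffered saline), both over 24 weeks. The labels name no strain, age, sex, genotype, dose or route, and do not tie the libraries to separate animals. The p-values therefore reflect variation among these libraries, which may be technical.

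Initiation begins when eIF2, bound to GTP, brings the initiator methionyl tRNA to the small ribosomal subunit together with eIF1, eIF1A, eIF3 and eIF5. The cap-binding complex eIF4F, made of eIF4E, eIF4G and the helicase eIF4A, recruits this assembly to the capped end of the messenger, and scanning stops at a start codon in a favourable sequence. The pathway is slowed in 2 well known ways: phosphorylation of eIF2, which blocks its exchange factor eIF2B, and the 4E-BP proteins, which hold eIF4E away from eIF4G until mTOR phosphorylates them. In blood, maturing red cells depend on eIF2alpha phosphorylation to match globin synthesis to haem supply.

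Libraries held 72758187 to 85006734 expected counts with PM2.5 and 72081019 to 89032794 with PBS. The 4 haemoglobin genes took 87.7% ± 1.01 in PM2.5 libraries and 85.6% ± 2.34 in PBS libraries (mean ± SD of 4 each), so the layer carried much red cell RNA. White cell markers were counted in every library, and the sum of Ptprc, Laptm5 and Coro1a ranged from 121.6 to 137.2 CPM (counts scaled to library size by TMM) with PM2.5 and from 115.1 to 132.5 CPM with PBS. PM2.5 replicates 17 and 18 stood apart from the rest. Their TMM factors, which rescale each library to the bulk of its genes, were 0.644 and 0.638 against 0.832 to 1.52 in the other 6 libraries, and transcripts of the neuronal gene Camk2a stood at 1.43 and 1.79 CPM in them and at no more than 0.0373 CPM elsewhere.

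The sequences that the initiation machinery itself reads are shown first, because several of these messengers are known targets of the factors they encode. In mammalian cells eIF1 discriminates against start codons in poor context, and its own messenger has such a start, which is known to hold eIF1 protein in check. Below, 6 bases before and 3 bases after the start codon are given from the GENCODE M21 transcripts (build GRCm38), each for the coding transcript of the gene with the most counts, with the start codon in capitals. The favourable features are a purine 3 bases before the ATG and a G directly after it.
Eif1: tatcgtATGtcc
Eif1b: tgtcgcATGtcc
Eif5: gccaaaATGtct
Eif4ebp1: ggagacATGtcg
Eif4ebp2: ggagccATGtcc
Eif4e: tctaagATGgcg
Eif3e: ggcaagATGgcg
Eif2s1: ttcagaATGccg

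The ATG of Eif1 lies at chr11:100320130-100320132, that of Eif5 at chr12:111539616-111539618 and that of Eif4ebp1 at chr8:27260409-27260411, all on the plus strand. Neither feature is present in Eif1 or in its paralog Eif1b, nor in Eif2b4 and Eif3b. Of the 45 members with a usable annotated ATG, 19 had both features, 22 had 1 and 4 (8.89%) had neither. Among 9853 tested genes read in the same manner, 46.3% had both, 47.3% had 1 and 6.45% had neither. The start of Eif5 follows a leader of 626 bases in the transcript used, against 245 bases for Eif1, 145 for Eif4e and 80 for Eif4ebp1. A 5′ end of C followed by 4 or more pyrimidines, the annotated form of the TOP element by which mTOR controls messengers of the translation machinery, was present in 2 of the 45, Eif2s1 and Eif3f, or 4.44%, against 2.51% of the 9853 genes. Annotated 5′ ends can differ from the ends used in these cells.

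The promoters of the eIF4F genes are shown because they are textbook MYC targets and the E-box CACGTG is the letters that MYC and its partner MAX read. Windows of 30 bases with the E-box in capitals are printed from RefSeq's promoters (GRCm38.p6), 5′ to 3′ on the strand of the gene.
Eif4e: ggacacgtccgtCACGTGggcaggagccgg
Eif4e, second site: ctcgccagcgacCACGTGatcacttttttt
Eif4a1: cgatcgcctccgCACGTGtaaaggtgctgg
Eif4g1: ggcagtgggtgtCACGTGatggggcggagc

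These sites lie at chr3:138527192-138527221 and chr3:138527028-138527057 on the plus strand for Eif4e, at chr11:69672595-69672624 on the minus strand for Eif4a1, and at chr16:20672661-20672690 on the plus strand for Eif4g1. Promoter windows, from 250 bases before to 50 after a gene's start, matched 36 of the 48 members. CACGTG, which reads the same on both strands, stood in 12 of their 48 windows (25%) and in 7.15% of the 32851 windows of all genes. CCGGAAG on either strand, the core read by ETS factors, stood in 35.4% of the members' windows and in 8.86% of all windows. The windows of all genes include genes that were not tested here, so the members are set against an unlike set. Windows of the same gene can overlap and count a site again, as for Eif5a. A match is a description of letters. Eif4ebp1 had no window in the table used.

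The question of the comparison was which blood transcripts differed after exposure, and here which initiation factor genes did. Of 46 members tested, Eif4ebp1, the gene of the eIF4E inhibitor 4E-BP1, rose with PM2.5 and none fell. The call rule was an adjusted p under 0.05 in edgeR's quasi-likelihood test with Benjamini-Hochberg adjustment over all 10361 genes tested, which called 0.463% of them higher and 1.14% lower, 1.6% in all. An unadjusted p under 0.05 was reached by 3 members, Eif4ebp1, Eif1 and Eif3j1, against 18% of all genes tested. In TMM-scaled CPM the libraries of the groups did not overlap for 1 member, 2.17% of 46, against 9.66% of all genes tested. Of all genes tested, 3.02% did not overlap with PM2.5 higher and 6.64% with PM2.5 lower. The log2 fold changes ran from -0.38 to 0.88, with 24 positive and 22 negative, and their median was 0.02 against 0.04 for all genes tested. In these bulk samples, fewer cells of a type and less RNA per cell cannot be told apart.

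**Figure D1:**
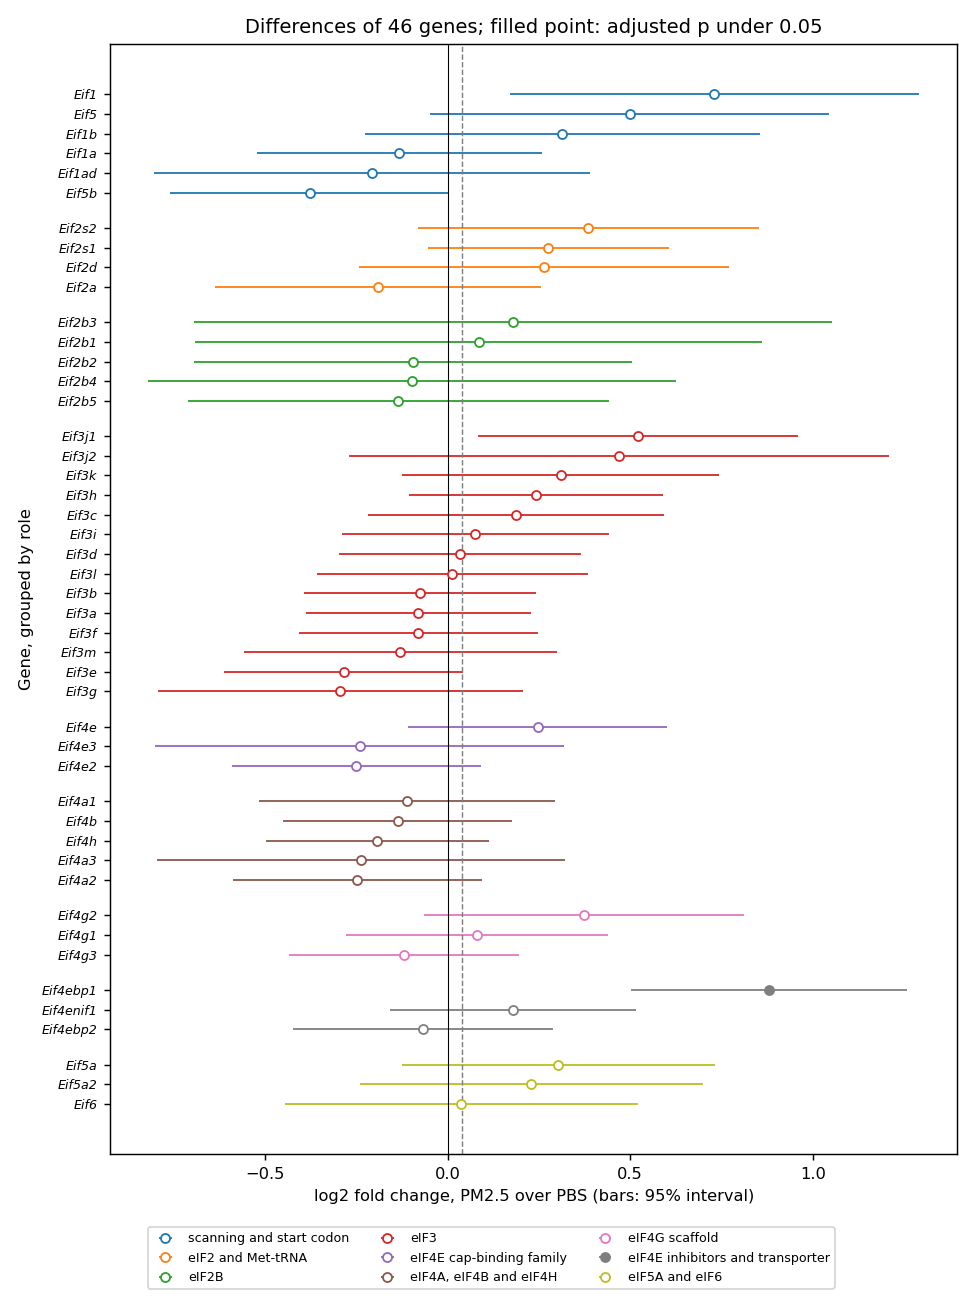
Log2 fold change, PM2.5 over PBS, of the 46 tested genes, grouped and coloured by role, with 95% intervals as bars and the median of all genes tested as a dashed line. The filled point is Eif4ebp1 at 0.88, the single member past adjusted p 0.05; scaling to library totals turned 22 of the 46 signs.

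Of the members that did not enter the test, Eif4e1b, an eIF4E relative best known from oocytes, had 0 counts in all 8 libraries, which allows up to 3 counts in a library, or between 0.0273 and 0.0555 CPM. Eif4ebp3, a further 4E-BP gene, had 0, 4, 0 and 7 counts in PM2.5 replicates 9, 17, 18 and 21 and 1, 0, 0 and 0 counts in PBS replicates 4, 10, 12 and 16. Both groups of Eif4ebp3 held libraries without a count, and no fold is given.

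Levels between genes were compared as FPKM, the length-scaled fragment values that the authors deposited, summed over the transcripts of a gene. Messengers of 2 start codon factors far exceeded the rest. Eif1 averaged 911.4 ± 142.1 FPKM with PM2.5 and 839.2 ± 83.3 FPKM with PBS, and Eif5, the GTPase activator of eIF2, 377.8 ± 94.9 FPKM with PM2.5 and 389.4 ± 93.3 FPKM with PBS (SD, n = 4 each). Together they made up 89.4% ± 2.09 of the members' summed FPKM with PM2.5 and 86.4% ± 1.46 of it with PBS. Next came Eif3k, a peripheral subunit of eIF3, at 47.0 ± 6.23 FPKM with PM2.5 and 56.5 ± 5.14 FPKM with PBS. After it the order was Eif4g2, Eif3h, Eif5a and Eif4a2, with means over all libraries of 16.5, 14.5, 14.0 and 12.04 FPKM, whose ranges overlapped one another. Eif1, Eif5 and Eif3k did not overlap with their neighbours in that order in any library.

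The 5 subunit genes of the exchange factor eIF2B lay at the low end, from Eif2b3 at 0.114 to Eif2b2 at 0.866 FPKM. eIF2B recharges eIF2 with GTP after each round of initiation. Eif2s1 and Eif2s2, the alpha and beta subunits of its substrate eIF2, stood at 1.22 and 1.16 FPKM. The core eIF3 subunit genes Eif3a and Eif3b stood at 1.40 and 1.16 FPKM, well under Eif3k and Eif3h. FPKM summed over transcripts weighs short ones heavily. For Eif1 the transcript Eif1-202, annotated as not coding and 383 bases long, held 22.6% of the counts and 76.6% of the FPKM, so most of the level of Eif1 on this scale came from it. In counts the order at the top was Eif5, with a mean of 698.8 CPM with PM2.5 and 494.7 CPM with PBS, then Eif1, with 356.0 CPM with PM2.5 and 214.6 CPM with PBS.

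**Figure D2:**
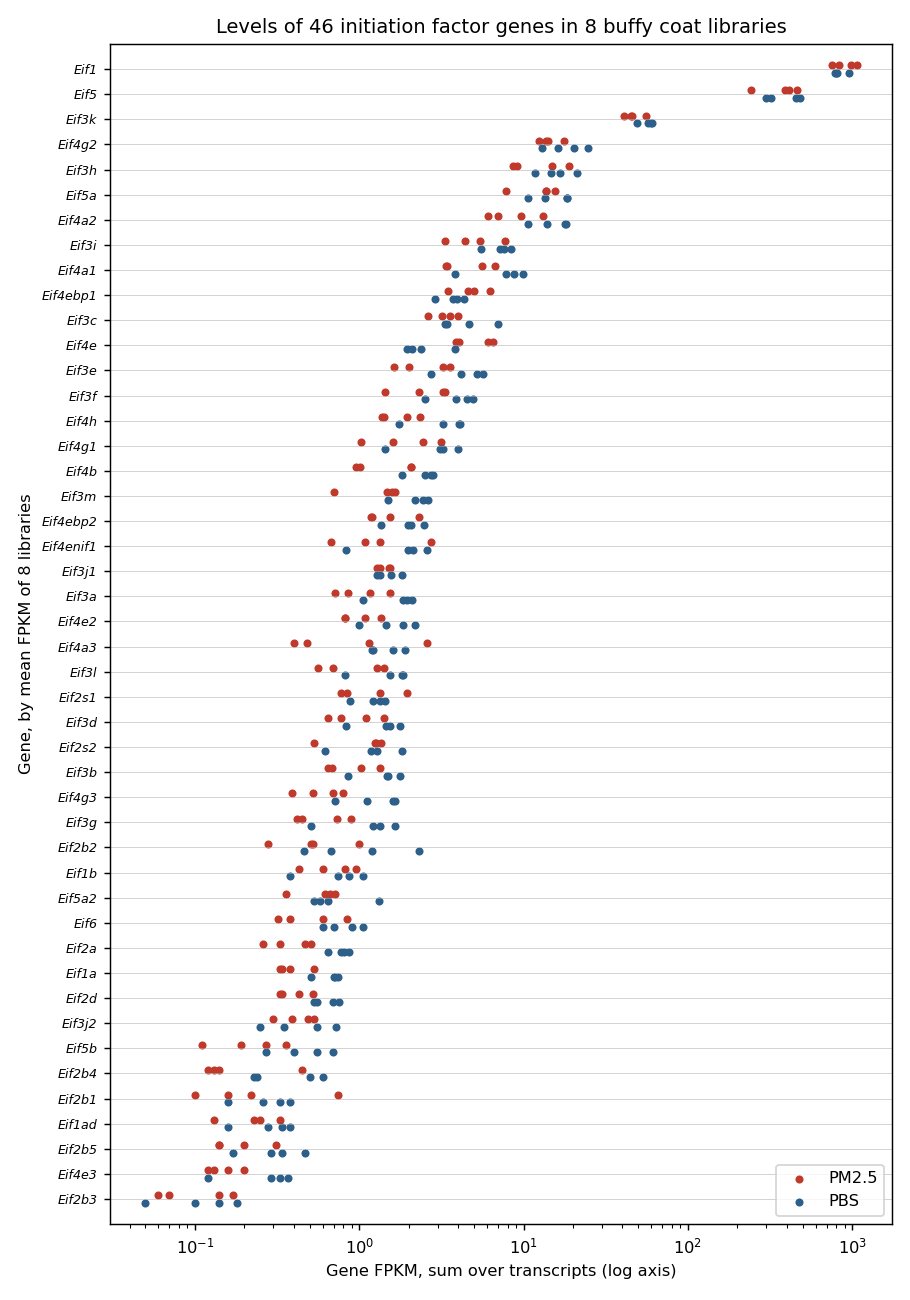
FPKM of each tested gene, on a log axis, in the 4 PM2.5 libraries (red) and the 4 PBS libraries (blue), with genes ordered by their mean over all 8. Eif1 and Eif5 stand above all others, and Eif2b3 is lowest at a mean of 0.114 FPKM.

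Among the eIF4E inhibitors and the eIF4E transporter, Eif4ebp1 rose (chromosome 8, 27260329 to 27276674, plus strand, GRCm38). Eif4ebp1 stood at 4.04, 6.23, 4.11 and 3.42 CPM in PM2.5 replicates 9, 17, 18 and 21, against 2.39, 2.32, 2.66 and 2.29 CPM in PBS replicates 4, 10, 12 and 16. On this scale every PM2.5 library lay above every PBS library, and replicate 17 was the highest by a wide margin. In FPKM the groups overlapped and replicate 9 was the highest. PM2.5 replicates 9, 17, 18 and 21 were at 6.29, 5.02, 3.49 and 4.59 FPKM. PBS replicates 4, 10, 12 and 16 were at 4.33, 3.96, 2.88 and 3.74 FPKM. The means were 4.45 ± 1.23 CPM with PM2.5 and 2.42 ± 0.168 CPM with PBS (SD, n = 4 each), a log2 fold change of 0.88 (SE 0.179, 95% interval 0.50 to 1.26) with an adjusted p of 0.0207 in edgeR. These values rest on 222 to 340 counts per PM2.5 library and 197 to 261 per PBS library. The paralog Eif4ebp2, which encodes an inhibitor of the same kind, was at 6.93 ± 0.999 CPM with PM2.5 and 7.27 ± 1.19 CPM with PBS, a log2 fold change of -0.07 (95% interval -0.42 to 0.29) that did not pass. Eif4enif1, which encodes the transporter 4E-T that carries eIF4E to the nucleus and to RNA granules, had a log2 fold change of 0.18 (adjusted p = 0.57 in edgeR).

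The counts of Eif4ebp1 were divided nearly evenly between its coding transcript Eif4ebp1-201 and Eif4ebp1-202, which GENCODE annotates as a processed transcript without a coding sequence. Eif4ebp1-201 was at 1.71, 3.26, 1.93 and 1.56 CPM in PM2.5 replicates 9, 17, 18 and 21 and at 1.33, 1.22, 1.30 and 1.17 CPM in PBS replicates 4, 10, 12 and 16. Eif4ebp1-202 was at 2.34, 2.97, 2.18 and 1.86 CPM in the same PM2.5 libraries and at 1.05, 1.101, 1.36 and 1.12 CPM in the same PBS libraries. Neither transcript overlapped between the groups. The coding transcript took 46.7% ± 4.24 of the gene's counts in PM2.5 libraries and 52.0% ± 2.97 in PBS libraries (SD, n = 4 each), and with coding transcripts alone the log2 fold change was 0.70 with an adjusted p of 0.187. Counts assigned to transcripts are estimates, and no exon of another gene overlaps those of Eif4ebp1.

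**Figure D3:**
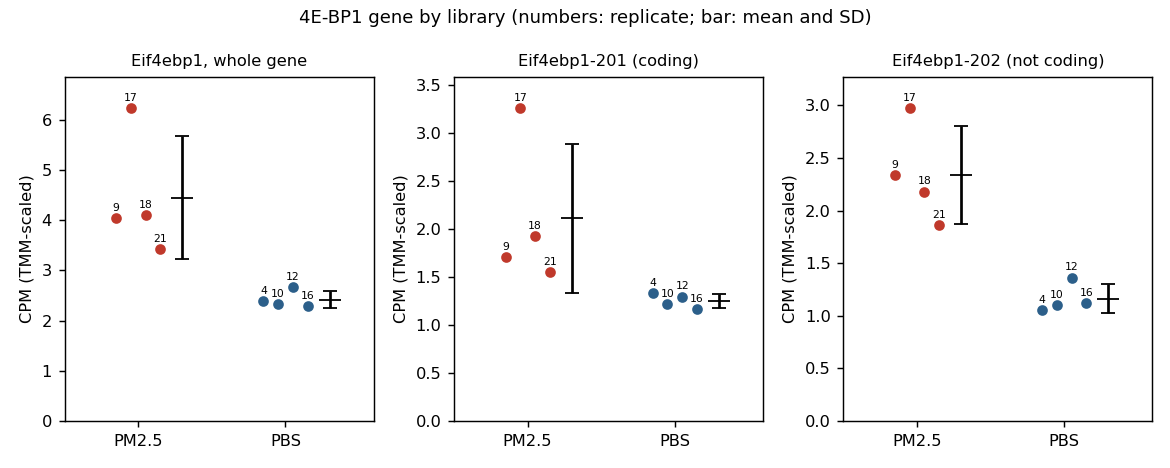
TMM-scaled CPM of Eif4ebp1 and of its 2 transcripts in each library, numbered by replicate, with the mean and SD (n = 4) of each group. In all 3 panels the 4 PM2.5 points lie above the 4 PBS points, and replicate 17 is the highest.

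The call of Eif4ebp1 was lost without PM2.5 replicate 17 (0.68, adjusted p = 0.0679), without PBS replicate 4 (0.83, 0.0618), without PBS replicate 10 (0.83, 0.101) and without PM2.5 replicates 17 and 18 together (0.64, 0.193). It was lost under scaling to library totals, at 0.28 (adjusted p = 0.555), and with haemoglobin genes removed first, at 0.51 (adjusted p = 0.205). Those scalings moved the median of all genes to -0.52 and -0.30, and relative to that median Eif4ebp1 lay 0.80 and 0.81 higher, against 0.83 in the TMM fit. Over all settings this distance ran from 0.57 in limma on log2(FPKM + 1) to 1.29 with the monocyte covariate. It was 0.64 without PM2.5 replicate 17 and 0.62 without PM2.5 replicates 17 and 18. The log2 fold change was above 0 in every setting run.

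**Figure D4:**
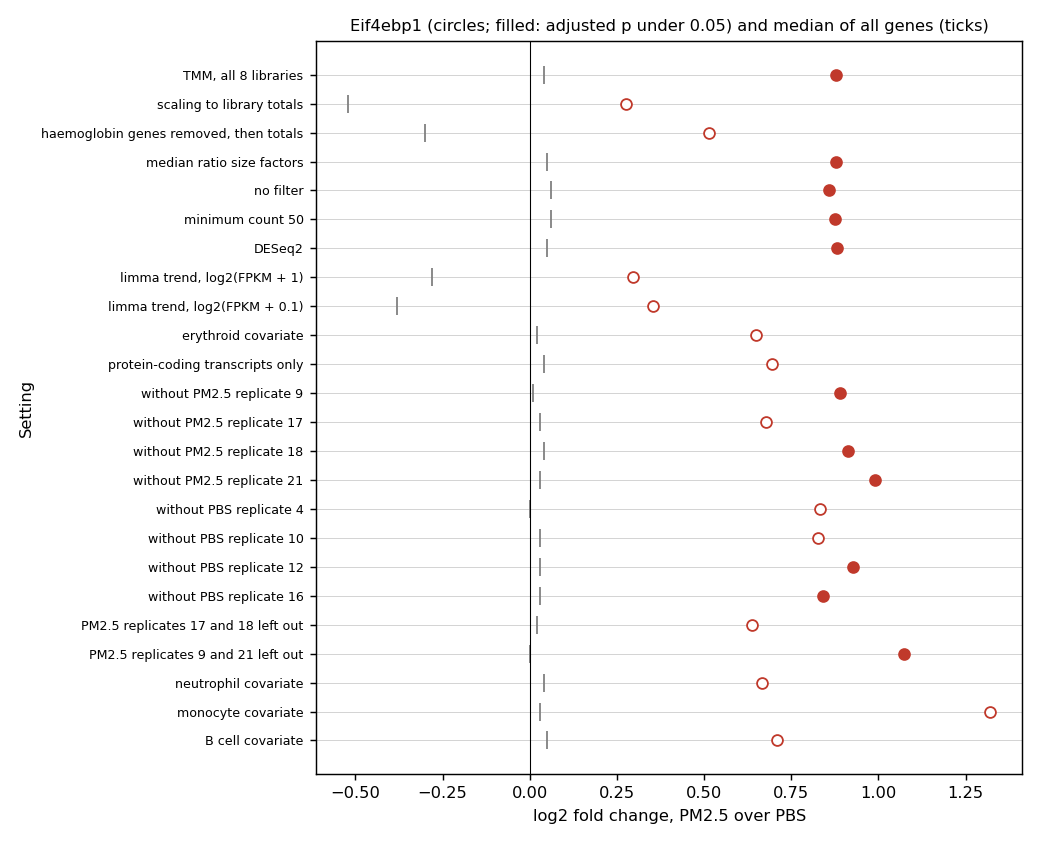
Log2 fold change, PM2.5 over PBS, of Eif4ebp1 (circles, filled where the adjusted p was under 0.05) and of the median of all genes (ticks) in each setting. Every circle lies above 0 and to the right of its tick.

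Levels of some cell type markers also differed between the groups. Of 7 neutrophil markers tested, 3 were called higher and none lower, and their summed level was 28.5 to 54.6 CPM with PM2.5 and 14.8 to 31.3 CPM with PBS. Of 7 monocyte markers tested, 3 were called higher, with sums of 98.4 to 147 CPM with PM2.5 and 73.4 to 104.3 CPM with PBS. Of 9 B cell markers, 3 were called lower, with sums of 35.8 to 46.6 CPM with PM2.5 and 42.6 to 69.8 CPM with PBS. Of 11 erythroid markers in the table, 0 were called and 11 were positive with a median of 0.48 (3 at an unadjusted p under 0.05 in edgeR), with sums of 19049 to 33004 CPM with PM2.5 and 15266 to 25006 CPM with PBS. The high erythroid sums were those of PM2.5 replicates 17 and 18, at 32470 and 33004 CPM, while PM2.5 replicates 9 and 21, at 19049 and 20300 CPM, lay inside the PBS range. With 17 and 18 left out, 8 of the 11 erythroid markers were positive with a median of 0.12. Under scaling to library totals 2 of the 11 were, with a median of -0.12. No marker on these 4 lists was at 0 in every library. Of 7 NK cell markers 1 was called higher, and of 9 T cell and 8 platelet markers 0 were called (2 and 0 at an unadjusted p under 0.05 in edgeR). With the mean of a list as a covariate, the log2 fold change of Eif4ebp1 was 0.67 for neutrophils (adjusted p = 0.383), 1.32 for monocytes (0.183), 0.71 for B cells (0.625) and 0.65 for erythroid genes (0.328). These edgeR fits called 1, 0, 1 and 0 of the 10361 genes, with 1160, 1249, 718 and 989 at an unadjusted p under 0.05. Each covariate overlaps in part with the groups, and its part in the result was not tested.

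Of 6 scanning and start codon genes, 0 were called. Eif1, which keeps the scanning ribosome open and rejects poor start codons, stood at 270.5, 532.3, 376.7 and 244.4 CPM in PM2.5 replicates 9, 17, 18 and 21, against 214.2, 178.9, 274.8 and 190.5 CPM in PBS replicates 4, 10, 12 and 16. The groups overlapped through PBS replicate 12, and replicates 17 and 18 were highest. Its log2 fold change was 0.73 (SE 0.266, adjusted p = 0.172 in edgeR), and it was 0.27 without replicates 17 and 18 and 0.11 under scaling to library totals. Eif5, named after its values were seen because of its level, stood at 604.3, 1015, 554.0 and 622.0 CPM in PM2.5 replicates 9, 17, 18 and 21 and at 459.4, 386.3, 571.2 and 561.9 CPM in PBS replicates 4, 10, 12 and 16. The high value was that of replicate 17, and the log2 fold change of 0.50 (SE 0.259, adjusted p = 0.315 in edgeR) did not pass. It was 0.31 without replicates 17 and 18 and -0.08 under scaling to library totals. Eif5b, the GTPase that joins the ribosomal subunits, had the lowest log2 fold change of all members, -0.38 (SE 0.182, adjusted p = 0.283 in edgeR), with 1.66, 1.28, 1.17 and 1.49 CPM in PM2.5 replicates 9, 17, 18 and 21 and 1.76, 2.06, 2.07 and 1.43 CPM in PBS replicates 4, 10, 12 and 16. Its exons overlap those of Rev1 on the opposite strand.

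Of 14 eIF3 genes, 0 were called, with 8 positive and 6 negative log2 fold changes and a median of 0.02. Eif3j1, a loosely bound subunit near the decoding centre, stood at 7.01, 12.1, 10.2 and 6.94 CPM in PM2.5 replicates 9, 17, 18 and 21, against 6.0, 4.82, 8.22 and 6.23 CPM in PBS replicates 4, 10, 12 and 16. Its highest values were again those of replicates 17 and 18, and its log2 fold change was 0.52 (SE 0.208, adjusted p = 0.21 in edgeR). It was 0.15 without replicates 17 and 18 and -0.08 under scaling to library totals. Its exons overlap those of Spg11 on the opposite strand. Eif3e, a subunit that contacts the messenger-recruiting complex, had a log2 fold change of -0.285 (adjusted p = 0.337 in edgeR). Eif3k was at 0.31, with 27.9 ± 6.30 CPM with PM2.5 and 22.5 ± 4.18 CPM with PBS (SD, n = 4 each), was not called, and was at 0.05 without replicates 17 and 18.

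Of the 4 genes of eIF2 and of the factors that place methionyl tRNA without it, 0 were called. Eif2s1, whose product is the subunit phosphorylated in stress, was at 3.51 ± 0.488 CPM with PM2.5 and 2.90 ± 0.336 CPM with PBS, a log2 fold change of 0.28 (95% interval -0.06 to 0.61). Eif2s2 was at 0.39 (95% interval -0.08 to 0.85), and both turned negative under scaling to library totals, to -0.29 and -0.22. Eif2s2 was at 0.165 without PM2.5 replicate 17. Of the 5 eIF2B genes, 0 were called and all lay between -0.13 and 0.18, the lowest being Eif2b5, the catalytic epsilon subunit. Their intervals were wide, as in Eif2b3 from -0.69 to 1.05, at summed levels of only 1.27 to 2.11 CPM with PM2.5 and 1.26 to 1.97 CPM with PBS.

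For the cap-binding complex, 0 of the 3 tested eIF4E family genes, 0 of 5 eIF4A, eIF4B and eIF4H genes and 0 of 3 eIF4G genes were called. Eif4e stood at 2.502, 2.40, 2.05 and 2.15 CPM in PM2.5 replicates 9, 17, 18 and 21, against 1.76, 1.58, 2.42 and 1.96 CPM in PBS replicates 4, 10, 12 and 16, a log2 fold change of 0.25 (95% interval -0.11 to 0.60). On the FPKM scale the same gene was at 5.13 ± 1.36 FPKM with PM2.5 and 2.57 ± 0.864 FPKM with PBS (SD, n = 4 each), and the libraries of the groups did not overlap, with 3.86 FPKM in the lowest PM2.5 library and 3.84 in the highest PBS library. The scales part through Eif4e-203, a retained-intron transcript of 292 bases that held 2.37% of the gene's counts and 48.0% of its FPKM, at 0.0968 CPM with PM2.5 and 0.0114 CPM with PBS. With limma on log2(FPKM + 1) the difference of Eif4e was 0.78 on that scale (adjusted p = 0.155). In FPKM the groups also did not overlap for Eif2a and Eif2d, with PM2.5 lower. Eif2a was at most 0.51 FPKM with PM2.5 and at least 0.65 with PBS, and Eif2d at most 0.52 and at least 0.53. In TMM-scaled CPM the groups overlapped for both, with log2 fold changes of -0.19 for Eif2a and 0.26 for Eif2d. On log2(FPKM + 1) the median difference of all 3658 genes that limma tested was -0.28. Exons of Serp1 and Rassf5, on the opposite strand, overlap those of Eif2a and Eif2d. The share over all genes was not computed in FPKM, so no result about the members follows from these FPKM differences.

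The helicase genes Eif4a1 and Eif4a2, their relative Eif4a3 and the partner genes Eif4b and Eif4h all had negative log2 fold changes, between -0.25 and -0.11, and none passed. The sign of Eif4a1 turned with the erythroid covariate (0.20) and without PM2.5 replicates 17 and 18 (0.12). Eif4a2 was at 14.1, 11.0, 11.9 and 13.2 CPM in PM2.5 replicates 9, 17, 18 and 21, against 15.6, 15.4, 14.9 and 13.8 CPM in PBS replicates 4, 10, 12 and 16, with replicates 17 and 18 the lowest. Its log2 fold change was -0.25, and -0.12 without them. Much of the count of both helicase genes lay in transcripts that do not code for the protein: coding transcripts held 32.3% to 60.4% of Eif4a1 and 38.1% to 48.6% of Eif4a2 across libraries. The exons of both hold small nucleolar RNA genes, and a close copy, the pseudogene Eif4a-ps4, had 41 to 127 counts with PM2.5 and 74 to 146 with PBS, so these levels are uncertain.

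The scaffold gene Eif4g1 was at 8.87 ± 1.41 CPM with PM2.5 and 8.39 ± 1.15 CPM with PBS (SD, n = 4 each; log2 fold change 0.08). Eif4g2, whose product lacks the eIF4E-binding part and whose own translation is known to begin at a GUG, was the most counted of the 3 at 66.2 ± 15 CPM with PM2.5 and 51.1 ± 7.19 CPM with PBS, a log2 fold change of 0.37 (adjusted p = 0.345 in edgeR). It was 0.11 without replicates 17 and 18 and -0.24 under scaling to library totals. Of eIF5A and eIF6 genes, 0 of 3 were called: Eif5a, whose product carries hypusine and helps stalled ribosomes, was at 0.30, Eif5a2 at 0.23 and Eif6, which keeps the large subunit apart, at 0.04, and all 3 were negative under scaling to library totals. Eif5a was at 0.10 without PM2.5 replicate 17, Eif5a2 at 0.002 without replicate 18 and Eif6 at -0.12 without replicate 9.

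Levels of some members went with those of red cell messengers across libraries. Over all 8 libraries, log2 CPM was set against the mean log2 CPM of 11 erythroid markers for 46 genes, with exact permutation p-values (two-sided) adjusted over the 46. Pearson's r was 0.95 for Eif3j1 (p = 0.00057, adjusted 0.0262), 0.92 for Eif3k (0.00144, 0.0331), 0.90 for Eif1 (0.00216, 0.0331), 0.88 for Eif3c (0.00439, 0.0438) and -0.87 for Eif4a2 (0.00476, 0.0438). Spearman's rho was 0.81, 0.88, 0.79, 0.74 and -0.83 for these genes, with raw p of 0.0218, 0.00724, 0.0279, 0.0458 and 0.0154 in exact permutation tests and adjusted p of 0.167 to 0.192, so 0 passed by rank. Without the 2 libraries farthest from the median of the marker mean, PM2.5 replicate 17 and PBS replicate 10, r was 0.85, 0.94, 0.74, 0.60 and -0.74. For Eif5 r was 0.22 without them and 0.81 with all libraries, and for Eif4ebp1 it was 0.43 without them and 0.76 with all. Both relations were weaker without those 2 libraries, whose removal also narrows the range of the marker mean. Without PM2.5 replicates 17 and 18 instead, a choice made after seeing the data, r over the other 6 libraries was 0.84 for Eif3j1, 0.80 for Eif3k, 0.65 for Eif1, 0.83 for Eif3c, -0.54 for Eif4a2, 0.79 for Eif5 and 0.30 for Eif4ebp1. Both axes share the scaling of each library, and a group of 4 is too small for r within it. The permutations moved libraries across the groups, so a difference between the groups also enters these p-values. The marker mean was 7.81 to 8.65 in PM2.5 libraries and 7.51 to 8.14 in PBS libraries. The relation was not computed for the other tested genes. Whether 5 of 46 by Pearson exceeds the share over all genes was therefore not tested.

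**Figure D5:**
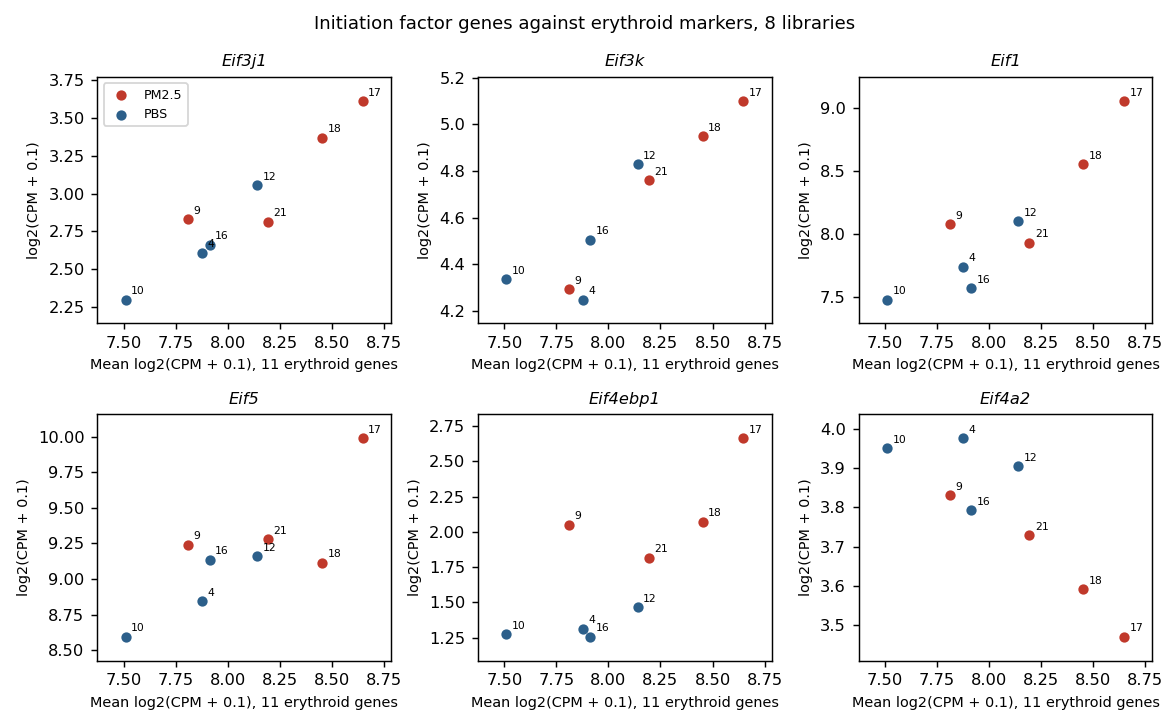
log2(CPM + 0.1) of 6 genes (vertical axes) against the mean log2(CPM + 0.1) of 11 erythroid markers (horizontal axes) in the PM2.5 libraries (red) and the PBS libraries (blue), numbered by replicate. Eif3j1 and Eif3k climb with the markers (r of 0.95 and 0.92), Eif4a2 goes down (-0.87), and PM2.5 replicates 17 and 18 lie at the right end.

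The other steps of translation gave few calls. Of 8 tested elongation genes and 6 termination and recycling genes, 0 were called, and 1 gene in these lists had an unadjusted p under 0.05 in edgeR: Gspt1, the release factor eRF3a, at -0.48 (adjusted p = 0.23 in edgeR). The smallest p in the elongation list was that of Eef1d, an exchange factor subunit, at 0.34 (adjusted p = 0.369 in edgeR). Of 13 genes of mTOR and MNK signalling, 0 were called and 3 had an unadjusted p under 0.05, the smallest for Rps6kb1, the S6 kinase 1 gene, at -0.64 (adjusted p = 0.116 in edgeR). Of 5 genes of poly(A) binding, 0 were called, and the smallest p was that of Paip2, which encodes an inhibitor of poly(A)-binding protein, at 0.39 (adjusted p = 0.342 in edgeR). Of 6 genes of eIF2alpha kinases and phosphatase subunits, 1 fell: Eif2ak3, which encodes the endoplasmic reticulum kinase PERK, stood at 3.41, 2.24, 2.15 and 2.02 CPM in PM2.5 replicates 9, 17, 18 and 21, against 6.95, 8.05, 5.09 and 3.68 CPM in PBS replicates 4, 10, 12 and 16. The groups did not overlap, and its log2 fold change was -1.27 (SE 0.229, adjusted p = 0.0118 in edgeR). The call was lost without PBS replicate 10 (-1.11, adjusted p = 0.0503), with the erythroid covariate (-0.90, 0.244) and when replicates 17 and 18 were both left out (-1.11, 0.172). It was also lost in limma on log2(FPKM + 1) and log2(FPKM + 0.1), at -1.21 (adjusted p = 0.139) and -1.98 (0.164), and in edgeR with the neutrophil (-1.15, 0.277), monocyte (-0.88, 0.417) and B cell (-1.11, 0.479) covariates. The haem-regulated kinase gene Eif2ak1, named after its values were seen, was at 31.9 ± 6.74 CPM with PM2.5 and 26.1 ± 6.30 CPM with PBS (SD, n = 4 each; adjusted p = 0.481 in edgeR).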

How the data were processed

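RNA-seq of 8 buffy coat libraries was used, grouped by the labels' treatment. The libraries marked the strand, per the labels' protocols. HISAT2 2.0.1, cutadapt 1.9.1 and bcl2fastq 2.17.1.14 with the build GRCm38 stand in the submitters' processing notes. How the reads were counted, and with which strand setting, is not given in the sources used here. For this reason 19 members whose exons overlap another gene's are less certain than the other 29. The deposited table holds expected counts, which are estimated counts per Ensembl transcript without normalization (24.5% of the values not whole), and FPKM, scaled by the authors to transcript length and library size, per the file headers.

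Of 118783 transcripts, 116710 were matched to GENCODE M21 and summed to 35944 genes, and the rest held at most 0.0532% of a library. Sums were rounded and entered edgeR 4.0.16 (R 4.3.3) for a two-sided quasi-likelihood test after TMM scaling, keeping genes by filterByExpr (minimum count 10, minimum total 15), with Benjamini-Hochberg adjustment over 10361 genes and a threshold of 0.05. Each SE was approximated by dividing the absolute log2 fold change by the square root of F, and intervals are at 95%. CPM are TMM-scaled and include haemoglobin. Logarithms of CPM for correlations used 0.1 as a pseudocount. Depth outside haemoglobin was 9615115 to 12714432 counts per library, and limits for a count of 0 cover counting error only. The fit was checked on simulated data, with changes put into more highly counted genes only. It called 20% of 50 genes changed 1.5-fold, 85% of 100 changed 2-fold and 100% of 50 changed 4-fold. Most changes of 1.5-fold were missed, and genes of low level were not assessed. A gene that was not called is therefore not shown to be unchanged.

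Members and lists were chosen with earlier results of these data known. Named were members past the threshold, the 2 smallest p and the highest FPKM in each role, and Eif2s1, Eif4e, Eif4g1, Eif4a1, Eif4ebp1, Eif5a and Eif6; of each related list, those past the threshold or the smallest p. Of further members, values were given to describe their role group, and those genes were chosen after their values were seen. Alternatives covered scaling, filters, DESeq2 1.42.0, limma 3.58.1 with a trend on log2(FPKM + 1) or log2(FPKM + 0.1) where 4 libraries reached 1 FPKM, an erythroid covariate, coding transcripts, the threshold and libraries left out. Neutrophil, monocyte and B cell covariates were chosen after seeing the data.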

Additional observations from a re-analysis of the deposited data

Results flagged for a closer look

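In the PM2.5 group Eif5a2, the less widely expressed copy of the eIF5A gene, stood at 4.90 CPM in replicate 18, against 3.02, 2.64 and 2.97 CPM in replicates 9, 17 and 21. The gap of replicate 18 to its nearest neighbour was 0.83 of the range of the group, just above Dixon's 95% critical value for 4 libraries. In FPKM replicate 18 was at 0.66, below replicate 9 at 0.71. The PBS libraries of Eif5a2 ranged from 2.14 to 4.12 CPM. Chance alone gives about 1 such value in 20 groups, and 92 groups of member values were examined in this manner.

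In the PM2.5 group Eif5 stood at 1015 CPM in replicate 17, against 604.3, 554.0 and 622.0 CPM in replicates 9, 18 and 21, a gap of 0.85 of the range of the group. The PBS libraries of Eif5 ranged from 386.3 to 571.2 CPM. These CPM carry the TMM factor of replicate 17, which was 0.644. In FPKM, PM2.5 replicates 9, 17, 18 and 21 were at 463.0, 415.4, 242.8 and 389.7, and replicate 17 was not the highest.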

How the results depend on the processing

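The log2 fold change of Eif4ebp1 was above 0 in each alternative run. It passed the threshold under median ratio size factors, without a filter, at a minimum count of 50, with DESeq2 (0.88, adjusted p = 0.00203), with the PM2.5 pair 9 and 21 left out (1.07, 0.0121), and in 5 of the 8 fits that left out a single library (PM2.5 9, 18 or 21, or PBS 12 or 16). Over all alternatives its adjusted p ranged from 0.000231 without a filter to 0.625 with the B cell covariate. The number of members called higher was 0 under scaling to library totals, with haemoglobin genes removed, in both limma fits, with the erythroid covariate, with coding transcripts alone and without PM2.5 replicates 17 and 18, and 0 to 1 when single libraries were left out. No member was called lower in any alternative run. Limma gave 0.29 and 0.35 for Eif4ebp1 on the log2(FPKM + 1) and log2(FPKM + 0.1) scales.

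Of all genes, 483 were called under scaling to library totals, 624 without a filter, 371 with DESeq2, 49 with coding transcripts alone, 356 at an adjusted p of 0.1 and 8 without PM2.5 replicates 17 and 18. Single libraries left out gave 31 to 192, with 55, 69 and 85 when the library was PM2.5 replicate 17, 18 or 21, and 87 and 31 when it was PBS replicate 4 or 10. None were called by limma on either FPKM scale (0 of 3658 tested, with 716 and 695 at an unadjusted p under 0.05) or by edgeR with the erythroid covariate (0 of 10361 tested, with 989). The number of genes tested differed between fits. It was 18035 without a filter, and DESeq2 gave no adjusted p for 804 of its 10361 genes. Other tools did call genes on the same libraries, and the cause was not tested.

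Of 470 values of the 23 named members under alternatives, 403 kept their direction and call, 13, all of Eif4ebp1, lost the call, and 54 of uncalled members turned sign. The 403 are no measure of stability. They include the threshold of 0.1, which reuses the fold changes of the TMM fit, and an uncalled member kept its call by staying uncalled. Scaling to library totals gave -0.35 for Eif2b3, -0.29 for Eif2s1, -0.22 for Eif2s2, -0.078 for Eif3j1, -0.28 for Eif3k, -0.27 for Eif4e, -0.40 for Eif4enif1, -0.49 for Eif4g1, -0.24 for Eif4g2, -0.29 for Eif5a, -0.39 for Eif5a2 and -0.50 for Eif6. With haemoglobin genes removed the values were -0.15 for Eif2b3, -0.068 for Eif2s1, -0.055 for Eif3k, -0.067 for Eif4e, -0.17 for Eif4enif1, -0.255 for Eif4g1, -0.056 for Eif5a, -0.12 for Eif5a2 and -0.30 for Eif6. These scalings also moved the median of all genes, to -0.52 and -0.30. Limma on log2(FPKM + 1) and on log2(FPKM + 0.1), where the median was -0.28 and -0.38, gave -0.017 and -0.055 for Eif2s1, -0.075 and -0.13 for Eif2s2, -0.049 and -0.075 for Eif3j1, -0.265 and -0.27 for Eif3k, -0.25 and -0.41 for Eif4enif1, -0.37 and -0.52 for Eif4g1, -0.315 and -0.33 for Eif4g2, and -0.25 and -0.27 for Eif5a. The erythroid covariate gave 0.07 for Eif2b2, -0.067 for Eif3k and 0.20 for Eif4a1, and coding transcripts alone -0.001 for Eif6. Without PM2.5 replicates 17 and 18, Eif2b2 was at 0.10 and Eif4a1 at 0.12. Without PM2.5 replicates 9 and 21, Eif2b3 was at -0.16, Eif4g1 at -0.025 and Eif6 at -0.145. With single libraries left out, Eif2b2 ranged from -0.23 to 0.033, Eif2b3 from -0.017 to 0.32, Eif2b5 from -0.34 to 0.013, Eif4g1 from -0.015 to 0.18 and Eif6 from -0.12 to 0.12.

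No paired analysis was possible because the groups share no replicate number. Counts under 1 CPM, as for the eIF2B genes, limit what differences of that size can be seen.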
